A study of Homo sapiens with 4 samples.

Results

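The genes described here are the collagen chains, the laminin chains and a small group of other matrix genes measured in 4 human melanoma lines by single-cell 3' RNA sequencing. Members were all genes of the count table whose symbol has the form COL, number, A, number, or LAMA, LAMB or LAMC followed by a number. To these were added 10 named genes: FN1, TNC, SPARC, LUM, BGN, VCAN, FBN1, FBLN1, LOXL2 and LOXL3. The rule found 55 of the 19238 genes in the table, namely 33 collagen chains, 12 laminin chains and all 10 named genes. The rule itself used symbols only, but the members were chosen with earlier results of these data known. Chains that are not in this table, among them COL1A2 and COL3A1, were not analysed here.

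The lines were WM239A, labelled as poorly metastatic, and 3 subclones of it grown without any treatment named in the labels. The subclone 113/6-4L is labelled by a high potential for lung metastasis, and 131/4-5B1 and 131/4-5B2 by a high potential for brain metastasis. Each line was 1 library with no replicate, and each subline is a single line standing for its metastatic behaviour. The cells carry a barcode suffix from 1 to 4, and no label or name ties a suffix to a line. The cells were therefore described as barcode sets 1 to 4, none of them is called by the name of a line, and no comparison of metastatic with parental cells was made. The sets are libraries with no replicates, so every difference below compares 4 libraries and has no test.

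Collagens are built from 3 polypeptide chains wound into a triple helix, and many types need chains from different genes, so the chains of a type can be read together. Laminins are cross-shaped trimers of an alpha, a beta and a gamma chain, and together with collagen IV they form the sheets of basement membranes. Fibronectin, tenascin C, lumican, versican and fibulin are secreted proteins that bind cells, growth factors or collagen fibres in the matrix between cells. Melanocytes, the cells from which melanoma arises, rest on a basement membrane in the skin, and melanoma cells can make matrix of their own.

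The sets held 1779 to 2140 cells and 71182648 to 71915542 UMIs (unique molecules counted), and the median cell had 41131 UMIs in set 2 and 33152.5 to 33556 in the other sets. The unit of level is CPM: the UMIs of a gene in all cells of a set, per 1000000 UMIs counted there. A 3' library reads 1 tag per transcript, so a level does not grow with gene length. Intervals are exact at 95% and cover counting error only. Values without set numbers are always in the order of sets 1 to 4. Of 8134 distinct barcodes 39 occurred in more than 1 set. Among marker genes, 7 of 8 melanocytic markers reached 10 CPM, with sums of 7945, 6946, 9873 and 9232 CPM, whereas neither of the endothelial markers in the table (2 of 5 listed) did, with sums of 1.33 to 2.98 CPM. Of 3 immune markers in the table only CD68 reached 10 CPM (sums of 29.9 to 38.6 CPM), and of 5 epithelial ones only KRT8 and KRT18 did (sums of 117 to 178 CPM).

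Start site sequences were taken from RefSeq promoter entries on GRCh38.p14, which cover 41 of the 55 members and 10 of the 14 most abundant ones. The submitters' processing notes name hg19 and mm10, so the coordinates below belong to the RefSeq entries and not to the deposited tables. The sequences are shown because they belong to chains whose values are read together below: the stretch shared by both collagen IV genes, the collagen IX chain COL9A2, and FN1, the most abundant gene among those that differed 2-fold between sets. Capitals mark 4 motifs, each searched on both strands. They are the GC box with the letters GGGCGG, the CCAAT box with the letters in its name, the cAMP response element with the letters TGACGTCA, and the core of SOX protein sites with the letters ACAAAG. Each is written 5' to 3' along the strand given.
COL4A1/COL4A2: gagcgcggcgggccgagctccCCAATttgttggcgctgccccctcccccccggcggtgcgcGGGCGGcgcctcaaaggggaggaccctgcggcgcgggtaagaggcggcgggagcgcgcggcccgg
COL9A2: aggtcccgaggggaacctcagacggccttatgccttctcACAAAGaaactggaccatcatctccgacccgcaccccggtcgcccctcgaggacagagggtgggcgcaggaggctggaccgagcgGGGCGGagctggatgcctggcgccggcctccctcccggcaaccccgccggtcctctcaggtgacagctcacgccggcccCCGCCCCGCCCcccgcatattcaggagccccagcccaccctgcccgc
FN1: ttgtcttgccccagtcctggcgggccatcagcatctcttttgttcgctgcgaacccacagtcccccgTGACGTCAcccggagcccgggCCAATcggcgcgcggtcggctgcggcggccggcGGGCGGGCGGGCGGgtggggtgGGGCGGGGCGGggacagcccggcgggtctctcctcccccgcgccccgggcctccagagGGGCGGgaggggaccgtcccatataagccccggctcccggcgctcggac

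The first stretch is chr13:110307158-110307283 on the plus strand, the 126 bases between the starts of COL4A1, read leftwards, and COL4A2, read rightwards. It holds 1 CCAAT box and 1 GC box. The second is chr1:40317287-40317536 on the minus strand, the 250 bases before the start of COL9A2, with 1 SOX core and 3 GC boxes, of which a pair on the opposite strand overlap. The third is chr2:215436069-215436318 on the minus strand, the 250 bases before the start of FN1, with 1 cAMP response element, 1 CCAAT box and 6 GC boxes, some of them overlapping. Of 35116 RefSeq entries, the same 250-base window held the GC box in 42.6%, the CCAAT box in 32.0%, the SOX core in 13.7% and the cAMP response element in 1.65%. For windows of 126 bases the shares were 34.6% for the GC box and 21.1% for the CCAAT box. A match is a description of the letters only.

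The 55 members together made up 1416, 1388, 1030 and 1070 CPM. Most of this came from SPARC and FN1. By level, 14 members reached 10 CPM in at least 1 set, 18 reached 1 to 10 CPM and 23 stayed below 1 CPM everywhere. The most abundant group held 5 of 33 collagen chains (COL9A3, COL4A2, COL6A1, COL6A2 and COL9A2), 4 of 12 laminin chains (LAMA4, LAMC1, LAMB1 and LAMA1) and 5 of the 10 named genes (SPARC, FN1, TNC, LUM and FBLN1).

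Of these 14 members, 6 (42.9%) differed at least 2-fold between their highest and lowest set on the log2(CPM + 1) scale. Among all 7421 genes that reached 10 CPM the share was 5.85%. A gene that reaches the level through 1 set alone, as LUM, FBLN1 and COL9A2 among these 6 did, is more apt to span 2-fold. No test of the difference between these shares was made. The members were chosen with earlier results of these data known, so their share is not independent of the values. The 6 members were FN1, TNC, LUM, COL9A3, FBLN1 and COL9A2, and 4 of them came from the 10 named genes. The median span was 0.58 on the log2 scale for the 14 members and 0.33 for all 7421 genes. None of the 4 laminin chains was among the 6. With a pseudocount of 10 CPM the count was 4, without TNC and COL9A2.

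Between pairs of sets, 5 members differed 2-fold between sets 1 and 2, where 3.18% of all genes did, namely FN1, LUM, COL9A3, FBLN1 and COL9A2. Between sets 1 and 3 there were 4 (4.35% of all genes), and between sets 1 and 4 also 4 (4.12%), in both cases TNC, LUM, COL9A3 and FBLN1. Sets 2 and 3 differed in 5 members (1.75% of all genes) and sets 2 and 4 in 4 (1.4%). Sets 3 and 4 differed in none of the 14 members, and in 0.0539% of all genes.

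**Figure D1:**
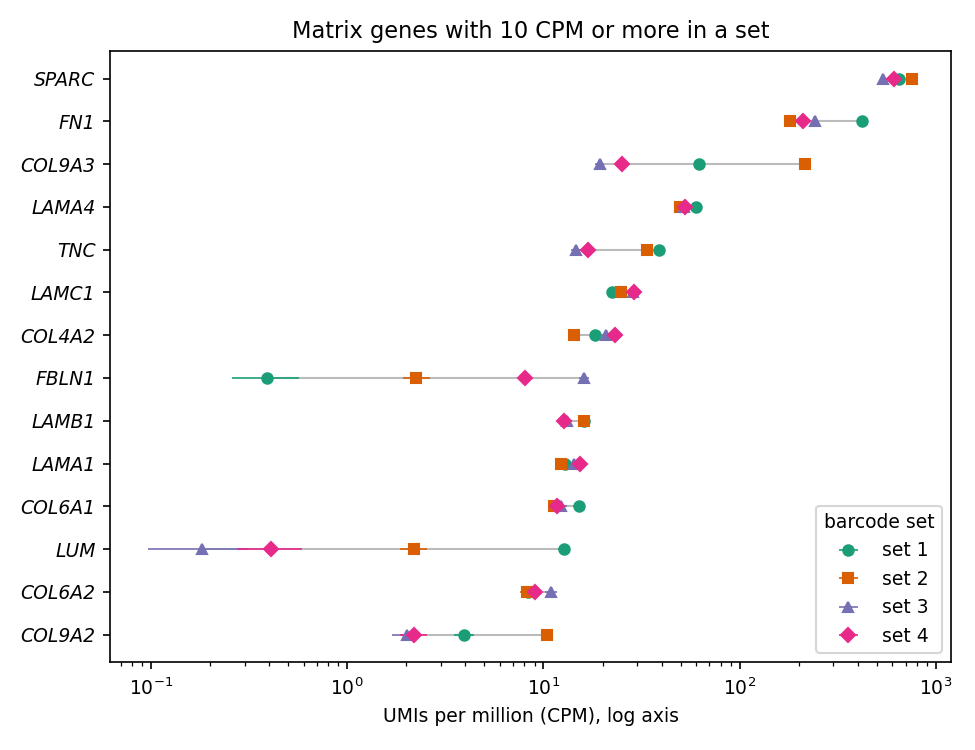
CPM (log axis) of the 14 members that reached 10 CPM, with 1 point per barcode set and exact Poisson 95% intervals, which are narrower than the symbol for most genes. SPARC and the laminin chains have their 4 points close together, while LUM, FBLN1 and COL9A3 spread over an order of magnitude or more and sets 3 and 4 lie near each other.

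Collagen IX coats cartilage fibrils and is assembled from 1 chain each of COL9A1, COL9A2 and COL9A3. Its chains did not move together. COL9A3 stood in sets 1 to 4 at 61.9 (60.1 to 63.7), 216 (213 to 219), 19.4 (18.4 to 20.4) and 25.2 CPM (24.0 to 26.3). All 4 intervals were apart, and set 2 was the highest by a wide margin. Its level there was 11.1-fold that of set 3 (10.5 to 11.8) and 3.49-fold that of set 1 (3.38 to 3.61).

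COL9A2, the second chain, followed the order of COL9A3 at a lower level. It had 3.95, 10.5, 2.02 and 2.19 CPM, so that set 2 was again highest, set 1 next, and sets 3 and 4 were not apart beyond their intervals. Set 2 was 2.65-fold above set 1 (2.31 to 3.05) and 4.78-fold above set 4 (4.02 to 5.71). With a pseudocount of 10 CPM the log2 difference between sets 2 and 3 was 0.77, under 2-fold, in place of 1.93. COL9A1, the remaining chain, had 1.37, 1.57, 4.53 and 3.75 CPM from 98, 113, 324 and 267 UMIs. It split the sets the other way, with sets 3 and 4 high and sets 1 and 2 low, and set 3 was 3.31-fold above set 1 (2.64 to 4.20). Its ratio of set 2 to set 1 was 1.15 (0.868 to 1.52).

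The ratio of COL9A3 to COL9A1 therefore ran from 4.28 (3.79 to 4.84) in set 3 to 137 (114 to 167) in set 2, with 45.2 in set 1 and 6.71 in set 4. That of COL9A3 to COL9A2 varied less, at 15.7, 20.6, 9.62 and 11.5. COL9A3 exceeded both partners in every set. COL11A2, a chain of the minor cartilage collagen XI, had 1.20, 5.30, 1.93 and 1.64 CPM, and set 2 was 4.41-fold above set 1 (3.48 to 5.64). COL2A1, the main cartilage collagen onto whose fibrils both types assemble, had 3, 3, 7 and 3 UMIs in all.

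**Figure D2:**
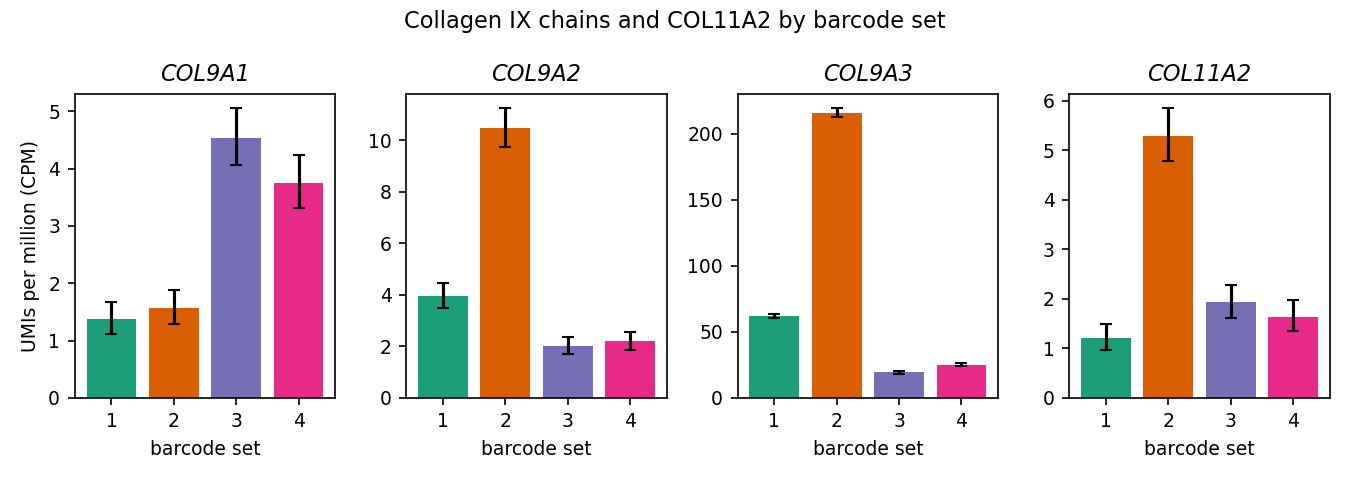
CPM of the 3 collagen IX chains and COL11A2 in barcode sets 1 to 4, as bars from 0 with exact Poisson 95% intervals and a separate axis for each gene. COL9A2, COL9A3 and COL11A2 are highest in set 2, and COL9A1 is highest in sets 3 and 4, at 4.53 and 3.75 CPM.

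COL9A3 was detected in most cells of set 2. After each cell was thinned to 10000 UMIs, 36.8%, 82.0%, 15.9% and 19.2% of cells had at least 1 COL9A3 UMI. Without thinning the shares were 65.0%, 97.1%, 38.3% and 43.6%, and the median cell had 1, 8, 0 and 0 UMIs. The table holds no cell type that should lack the gene, so no share from free RNA could be set beside these. For COL9A2 the thinned shares were 3.40%, 10.3%, 1.59% and 1.74%, against 11.98%, 32.9%, 6.17% and 6.66% without thinning.

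Collagen chains summed to 156, 294, 96.8 and 101 CPM. Without COL9A3 the sums were 94.1, 77.9, 77.4 and 75.9 CPM, with set 1 above the others. The 3 collagen IX chains alone took 4.74%, 16.4%, 2.52% and 2.91% of the UMIs of all 55 members.

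Collagen IV is the network-forming collagen of basement membranes, and its common form contains COL4A1 and COL4A2. COL4A2 had 18.4, 14.3, 20.9 and 23.2 CPM, and COL4A1 had 5.95, 4.09, 6.87 and 7.74 CPM. Both were lowest in set 2 and highest in set 4, by 1.62-fold for COL4A2 (1.501 to 1.76) and 1.89-fold for COL4A1 (1.64 to 2.19). Neither reached 2-fold. The ratio of COL4A2 to COL4A1 had the intervals 2.77 to 3.46, 3.07 to 3.998, 2.75 to 3.38 and 2.72 to 3.31, and these overlapped. These are the 2 genes that share the 126-base stretch printed above.

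COL4A2 was seen in 16.5%, 12.9%, 17.7% and 20.3% of thinned cells and in 42.4%, 39.3%, 46.9% and 50.4% of cells at full depth. The restricted collagen IV chains COL4A3, COL4A4 and COL4A5, which form the network of the kidney filter, were scarce. COL4A4 had 38, 82, 8 and 22 UMIs, and set 2 was 10.2-fold above set 3 (4.93 to 24.4). COL4A3, which lies beside it in the genome, had 7, 15, 1 and 4 UMIs. COL4A5 had 1, 23, 4 and 4 UMIs. All 3 had their highest count in set 2, where COL4A1 and COL4A2 were lowest.

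Collagen VI forms beaded microfibrils and is normally built from COL6A1, COL6A2 and a longer chain such as COL6A3. COL6A1 had 15.1, 11.3, 12.3 and 11.7 CPM, with set 1 1.34-fold above set 2 (1.22 to 1.46). COL6A2 had 8.38, 8.27, 10.9 and 9.01 CPM, with set 3 1.32-fold above set 2 (1.19 to 1.47). COL6A3 had 10, 13, 5 and 2 UMIs. The ratio of COL6A1 to COL6A2 was 1.80 (1.63 to 1.99) in set 1 and 1.13 to 1.37 in the other sets, so its interval in set 1 was apart from the rest. Thinned shares of cells were 10.7% to 14.9% for COL6A1 and 7.47% to 9.86% for COL6A2, and at full depth 30.9% to 38.2% and 23.9% to 29.8%.

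Other collagen chains were below 10 CPM. Several of them were highest in set 1. COL7A1, the anchoring fibril collagen at the base of the skin's outer layer, had 8.45, 3.92, 1.75 and 1.67 CPM, and set 1 was 5.05-fold above set 4 (4.15 to 6.20). COL5A2, a fibrillar chain that mixes into collagen I fibrils, had 6.13, 1.49, 1.02 and 1.19 CPM, and set 1 was 6.00-fold above set 3 (4.67 to 7.80). COL12A1, a collagen on the surface of fibrils, had 93 UMIs in set 1 and 1, 6 and 3 in the other sets. Its ratio of set 1 to set 3 was 15.5 (6.84 to 43.2).

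COL14A1, a close relative of COL12A1 on fibril surfaces, was highest in set 3 and, like COL12A1, lowest in set 2. It had 41, 19, 187 and 104 UMIs, or 0.572, 0.264, 2.62 and 1.46 CPM, and set 3 was 9.91-fold above set 2 (6.17 to 16.8). Of the remaining chains at 1 to 10 CPM, COL19A1 and COL27A1 had their highest level in set 1 at 2-fold or more above their lowest, and COL18A1 and COL15A1 differed by less than 2-fold. Among chains that can join COL5A2 in fibrils, COL5A1 had 2 to 4 UMIs per set, COL1A1 had 0 to 2 and COL5A3 had 29 to 60.

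**Figure D3:**
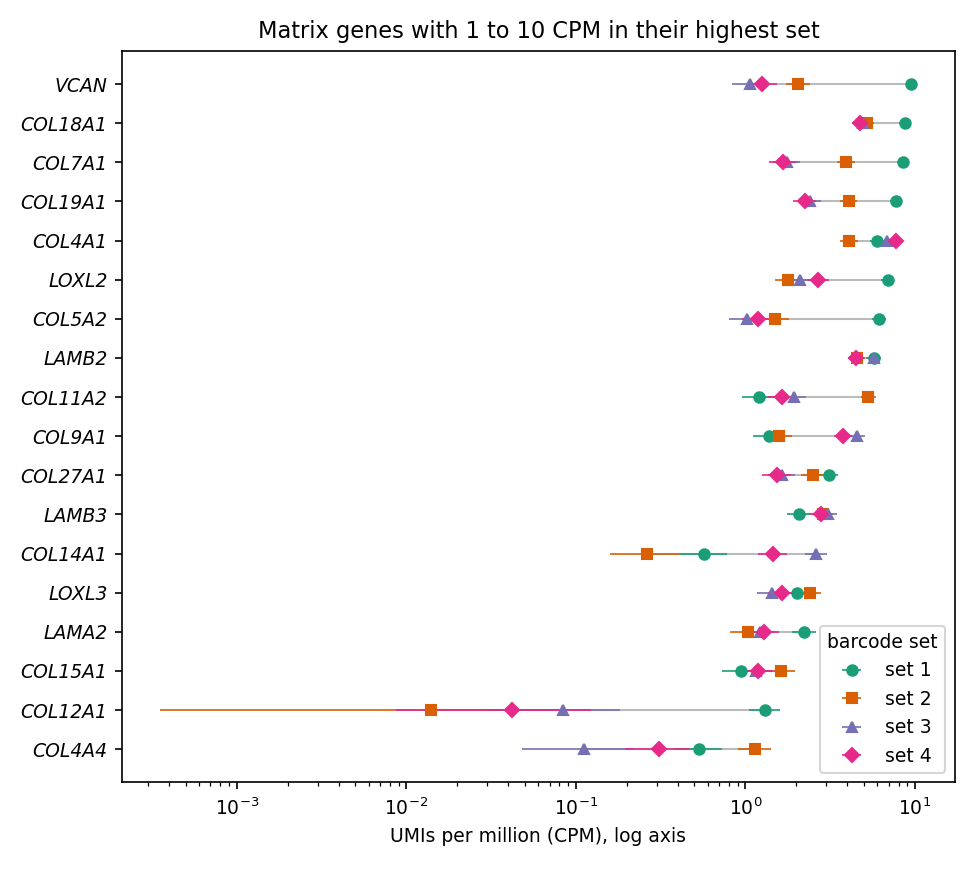
CPM (log axis) of the 18 members with 1 to 10 CPM in their highest set, with 1 point per barcode set and exact Poisson 95% intervals. VCAN, LOXL2, COL5A2, COL7A1 and COL12A1 are highest in set 1, COL14A1 and COL9A1 in set 3, and COL11A2 and COL4A4 in set 2.

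Laminin chains summed to 122, 112, 119 and 119 CPM. None of the 4 that reached 10 CPM spanned 2-fold, and over all genes only 5.85% did. LAMA4, the alpha chain of laminins of vessel walls and several other tissues, was the most abundant, with 59.9, 49.5, 51.8 and 52.8 CPM. Set 1 was 1.21-fold above set 2 (1.16 to 1.26), and sets 3 and 4 were 1.02-fold apart with an interval of 0.973 to 1.07. LAMA1, the alpha chain of the early embryo's laminin, had 12.8, 12.2, 14.4 and 15.3 CPM, with set 4 1.25-fold above set 2 (1.14 to 1.37).

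LAMB1, the beta chain of both of these laminins, had 16.1, 16.1, 13.1 and 12.7 CPM, with set 1 1.27-fold above set 4 (1.16 to 1.38). LAMC1, the common gamma chain, had 22.2, 24.97, 28.7 and 28.8 CPM, with set 4 1.30-fold above set 1 (1.21 to 1.38). LAMB1 was thus lower and LAMC1 higher in sets 3 and 4, and the ratio of LAMC1 to LAMB1 was 1.38 (1.28 to 1.49), 1.55 (1.44 to 1.68), 2.19 (2.03 to 2.37) and 2.26 (2.09 to 2.45). The intervals of sets 1 and 2 lay below those of sets 3 and 4. The ratio of LAMA4 to LAMA1 was 4.67, 4.05, 3.61 and 3.45.

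The thinned shares of cells with a UMI were 43.7%, 37.3%, 37.7% and 39.4% for LAMA4, 19.7% to 25.6% for LAMC1, 11.97% to 14.5% for LAMB1 and 10.6% to 15.1% for LAMA1. At full depth they were 76.7% to 80.8%, 50.2% to 61.4%, 32.8% to 45.5% and 33.8% to 37.8%. Of the laminin chains at 1 to 10 CPM, the beta chains LAMB2 and LAMB3 differed by less than 2-fold. LAMA2, the alpha chain of muscle and nerve laminin, had 2.22, 1.03, 1.22 and 1.28 CPM, and set 1 was 2.16-fold above set 2 (1.63 to 2.88). LAMB3 had 2.08 to 3.05 CPM, and the alpha chain LAMA3 had 4, 10, 11 and 3 UMIs.

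SPARC, a secreted protein that binds collagen and calcium, was the most abundant member in every set. It had 649.7, 757.5, 535 and 608 CPM, and set 2 was 1.41-fold above set 3 (1.40 to 1.43). At least 98.1% of thinned cells and 99.8% of cells at full depth had a SPARC UMI in each set. SPARC did not reach 2-fold.

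FN1, the main adhesive protein of the matrix, stood at 418 CPM (414 to 423) in set 1, against 179.6 (177 to 183), 243 (239 to 247) and 211 (207 to 214) in sets 2, 3 and 4. Set 1 was the highest and set 2 the lowest, and the 4 intervals were apart. The ratio of set 1 was 2.33 to set 2 (2.28 to 2.38), 1.72 to set 3 (1.69 to 1.75) and 1.99 to set 4 (1.95 to 2.02). The thinned share of cells with an FN1 UMI was 93.6%, 74.5%, 84.2% and 81.7%, and at full depth it was 97.4% to 99.2%.

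TNC, an anti-adhesive glycoprotein of developing and wounded tissue, separated the sets differently. Its level was 38.7 CPM (37.3 to 40.2) in set 1 and 33.7 (32.4 to 35.1) in set 2, but 14.6 (13.7 to 15.5) in set 3 and 16.8 (15.9 to 17.8) in set 4. Sets 1 and 2 were high and sets 3 and 4 low, with no overlap between the pairs of intervals. Set 1 was 2.65-fold above set 3 (2.47 to 2.85) and 1.15-fold above set 2 (1.09 to 1.21). With a pseudocount of 10 CPM the log2 difference between sets 1 and 3 was 0.98, just under 2-fold. A TNC UMI was found in 30.4%, 28.3%, 13.2% and 14.9% of thinned cells and in 65.2%, 67.7%, 35.5% and 38.7% at full depth.

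LUM, a small proteoglycan that spaces collagen fibrils, was highest in set 1 by far. Its UMIs numbered 908, 157, 13 and 29, or 12.7, 2.18, 0.182 and 0.407 CPM. Set 1 was 5.81-fold above set 2 (4.90 to 6.92) and 69.7-fold above set 3 (40.5 to 131). LUM was seen in 11.7% of thinned cells of set 1 and in 1.80%, 0.140% and 0.563% in the others (32.2%, 8.04%, 0.561% and 1.31% at full depth).

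LUM is also a fibroblast marker. Of 9 fibroblast markers 7 were in the table, and only LUM and FAP, a membrane protease, reached 10 CPM. FAP had 15.4, 2.07, 3.86 and 4.44 CPM, and the 7 markers together had 29.7, 4.83, 4.53 and 5.20 CPM. DCN, another small proteoglycan, had 68, 0, 1 and 1 UMIs, while the defining marker COL1A1 had 0, 2, 1 and 2 UMIs. PDGFRA had 21, 12, 14 and 12 UMIs, PDGFRB 9, 14, 7 and 6, and THY1 20, 13, 12 and 4. FAP and DCN were thus highest in set 1 like LUM, the other markers were at low counts in every set, and the part of fibroblasts in the LUM values was not tested.

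FBLN1, a calcium-binding protein of elastic fibres and basement membranes, had the reverse pattern of LUM. It had 28, 162, 1152 and 571 UMIs, or 0.391, 2.25, 16.1 and 8.02 CPM. Set 3 was 41.2-fold above set 1 (28.4 to 62.3), 7.16-fold above set 2 (6.07 to 8.49) and 2.01-fold above set 4 (1.82 to 2.23). On the log2(CPM + 1) scale sets 3 and 4 stayed under 2-fold apart. The gene was seen in 0.331%, 1.80%, 13.6% and 6.89% of thinned cells and in 1.23%, 8.66%, 36.5% and 21.3% at full depth.

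Among the named genes at 1 to 10 CPM, VCAN, a large proteoglycan of loose matrix, had 9.52, 2.04, 1.06 and 1.25 CPM. Set 1 was 8.95-fold above set 3 (7.05 to 11.5). LOXL2, an enzyme that cross-links collagen and elastin, had 6.93, 1.79, 2.09 and 2.68 CPM, and set 1 was 3.86-fold above set 2 (3.17 to 4.72). Its relative LOXL3 had 1.43 to 2.39 CPM and spanned less than 2-fold. BGN, a small proteoglycan related to LUM, had 2, 1, 2 and 0 UMIs, and the microfibril protein FBN1 had 13, 5, 15 and 14.

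A wider count took in every member with at least 1 CPM in a set and used the plain ratio of CPM, with a floor of 3 UMIs for the lower set. This rule was added after the values had been seen, and the members were chosen with earlier results known. On it, 18 of 32 members (56.2%) spanned 2-fold, against 13.5% of 12690 genes. Of these 18 members, 11 were highest in set 1: FN1, TNC, LUM, VCAN, LOXL2, COL5A2, COL7A1, COL12A1, COL19A1, COL27A1 and LAMA2. A further 4 were highest in set 2, namely COL9A3, COL9A2, COL11A2 and COL4A4, and 3 in set 3, namely COL9A1, COL14A1 and FBLN1. None was highest in set 4. Over all genes 1709 spanned 2-fold on this rule. Of these, 798 were highest in set 1, 404 in set 2, 381 in set 3 and 126 in set 4. They made up 6.29%, 3.18%, 3% and 0.993% of the 12690 genes. By family the members counted were 11 of 17 collagen chains, 1 of 7 laminin chains and 6 of 8 named genes.

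The 23 members below 1 CPM are near the depth limit. In 17 of the 55 members no set had as many as 20 UMIs. COL28A1 and BGN had 0 UMIs in set 4, COL13A1 in sets 2, 3 and 4, and COL1A1 in set 1. The floor set for a count of 0 was 3 UMIs, or 0.0417 to 0.0421 CPM, and the upper end of the exact 95% interval was 0.0513 to 0.0518 CPM. COL13A1 had 6 UMIs in set 1. The best counted of the 23 were COL5A3, with 29, 32, 34 and 60 UMIs, COL16A1 with 25 to 39 and LAMC3 with 17 to 35.

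Among the 14 most abundant members, FN1 had the highest ratio of variance to mean over cells in each set. The variance of thinned UMIs over their mean, which is 1 for pure counting noise, was 2.74, 2.18, 1.83 and 1.77 for FN1, 1.90, 1.86, 1.60 and 1.63 for SPARC, and 1.55, 1.496, 1.28 and 1.25 for COL9A3. For COL4A2, COL6A1, COL6A2, COL9A2, LAMA1, LAMB1 and LAMC1 the values lay between 0.979 and 1.08. Genes with few UMIs per cell stay near 1 on this measure, so it does not rank genes of unlike level by relative spread. In set 1 the thinned mean was 4.40 UMIs for FN1 and 0.570 for COL9A3. The median cell held 12 FN1 UMIs in set 1 and 6 to 7 in the others. In set 1, 6.38% of thinned cells had no FN1 UMI and 4.59% had 12 or more.

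**Figure D4:**
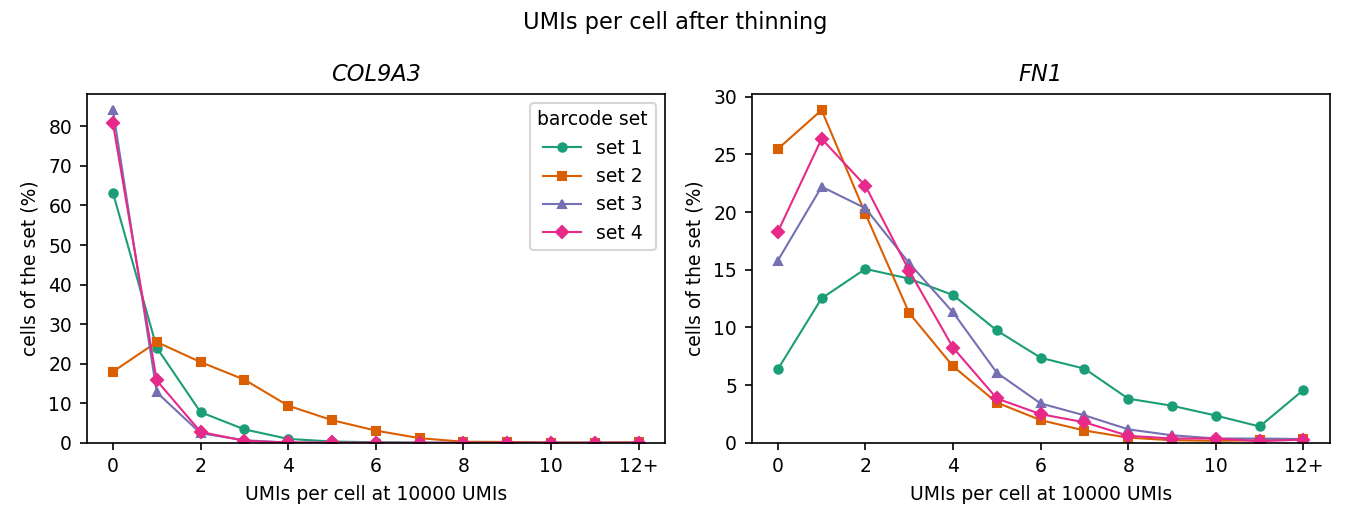
Percent of cells of each barcode set (vertical axis) by the number of COL9A3 or FN1 UMIs in the cell after thinning to 10000 UMIs (horizontal axis). For COL9A3 set 2 peaks at 1 UMI while the other sets peak at 0, where set 3 has 84.1% of its cells. For FN1 set 1 has the largest share of cells with 12 or more UMIs, at 4.59%.

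Correlations over the cells of a set, on log values scaled to 10000 UMIs, describe which genes varied together. They share the library and the scaling by depth, and they have no test. COL9A3 and COL9A2 had r of 0.12, 0.15, 0.05 and 0.10 (n of 2121, 1779, 2140 and 2133 cells), and COL9A3 and COL9A1 lay between -0.05 and 0.01. COL4A1 and COL4A2 had r of 0.05 to 0.08, and pairs of laminin chains -0.02 to 0.05. Values this weak in sparse counts are not findings.

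FN1 and COL9A3 had r of -0.24 in set 1, -0.10 in set 2, 0.00 in set 3 and -0.04 in set 4. For SPARC and COL9A3 r was 0.29 in set 1 and 0.28 in set 2, but 0.02 in set 3 and 0.04 in set 4. In set 1, the 1337 cells with no thinned COL9A3 UMI had 448 CPM of FN1 (442 to 455), the 673 cells with 1 or 2 had 384 (376 to 392) and the 105 cells with 3 or more had 276 (260.0 to 294). SPARC was higher from class to class, at 603, 709 and 826 CPM. The median UMIs of the classes were 32958, 34721 and 37608. In set 2 FN1 had 200.6, 179.9 and 169.9 CPM in the same classes and SPARC 681, 742 and 810 CPM. Depth moved with the classes, and its part in these values was not tested.

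The genes most like each member with at least 50 CPM were found in the set where that member was highest. For FN1 in set 1 (n = 2121 cells) they were RPL7 (r = 0.33), IGFBP5 (0.32), NEAT1 (0.31), RPS18 (0.30) and FLNA (0.29). For SPARC in set 2 (n = 1779) they were CD63 (0.35), TIMP1 (0.34), TIMP3 (0.34), CTSB (0.33) and P4HB (0.30). For COL9A3 in set 2 they were CTSD (0.30), GAPDH (0.29), SPARC (0.28), P4HB (0.27) and LY6E (0.24). No gene reached r of 0.2 with LAMA4 in set 1.

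Levels by cell cycle phase are given for FN1 and COL4A2, chosen after their values were seen. Phases were called from S and G2M gene scores on thinned cells. FN1 in cells called G1, S and G2M had 466, 424 and 330 CPM (set 1), 209.97, 181 and 147 CPM (set 2), 254, 251 and 214 CPM (set 3), and 235, 219 and 183 CPM (set 4). It was lowest in G2M in all 4 sets. COL4A2 went the other way, with 15.3, 20.03 and 19.9 CPM (set 1), 11.2, 15.8 and 14.7 CPM (set 2), 16.5, 23.0 and 22.1 CPM (set 3), and 18.6, 24.8 and 23.4 CPM (set 4). It was lowest in G1 in all 4 sets. FN1 was highest in set 1 and COL4A2 lowest in set 2 within each phase.

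**Figure D5:**
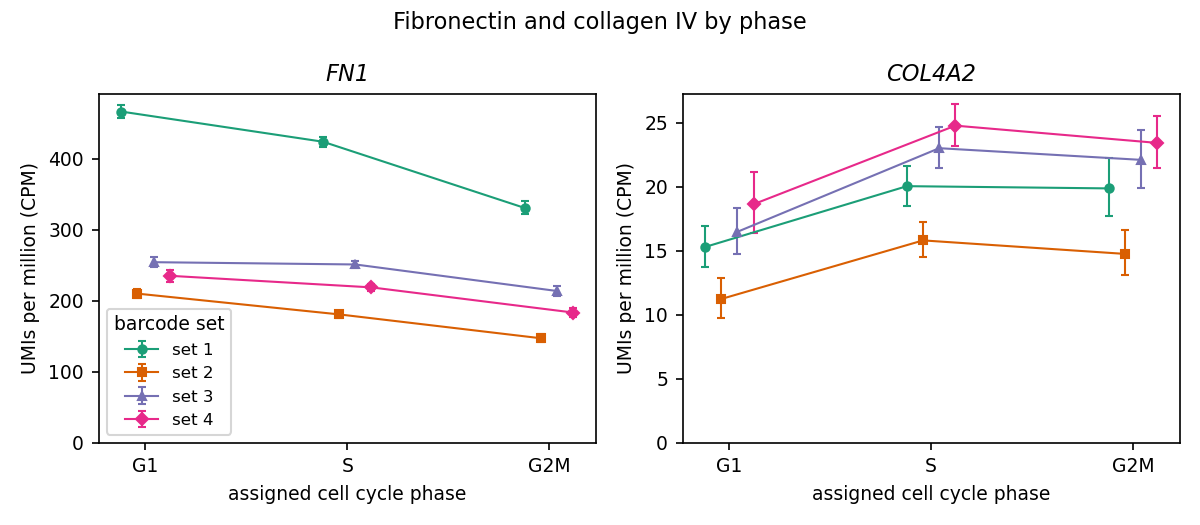
CPM of FN1 and COL4A2 (vertical axes from 0) in cells called G1, S and G2M, with 1 line per barcode set and exact Poisson 95% intervals. FN1 is lowest in G2M and COL4A2 lowest in G1 in each of the 4 sets.

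The machinery around these members was read from 5 lists. For the folding and assembly of collagen, 20 of 26 listed symbols, which include second names of some genes, were in the table. Of these, 17 reached 10 CPM and 1 spanned 2-fold, a share near the 5.85% of all genes. That gene, LEPREL1, an enzyme that hydroxylates proline in basement membrane collagens, had 2.40, 5.85, 15.6 and 15.2 CPM. The collagen chaperone SERPINH1 had 50.5, 51.3, 43.6 and 46.2 CPM. The median span of this list was 0.29 on the log2 scale, against 0.33 for all genes. Of the genes for procollagen processing and cross-linking, 11 of 15 were in the table, 3 reached 10 CPM and 0 spanned 2-fold. LOX, the founding lysyl oxidase and below 10 CPM, had 4.20, 0.209, 0.770 and 0.520 CPM.

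Among receptors for collagen and laminin, 24 of 25 were in the table, 14 reached 10 CPM and 4 spanned 2-fold, where 5.85% of all genes did. The laminin-binding integrin chain ITGA3 had 10.5, 4.24, 3.98 and 4.43 CPM, the integrin chain ITGB8 had 12.3, 2.73, 5.36 and 5.79 CPM, and the collagen receptor kinase DDR2 had 13.9, 2.60, 9.77 and 5.54 CPM. All 3 were highest in set 1. They reached 10 CPM in that set alone, and such genes are more apt to span 2-fold. The membrane proteoglycan SDC1 had 4.26, 6.73, 13.1 and 13.4 CPM. ITGB1, the shared beta chain of most such integrins, had 98.2, 102, 112 and 116 CPM.

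Of other basement membrane genes, 9 of 15 were in the table, 3 reached 10 CPM and 1 spanned 2-fold (5.85% of all genes). That gene, PXDN, whose enzyme forms cross-links between collagen IV molecules, had 1.03, 16.4, 26.2 and 27.4 CPM. Set 1 was low in PXDN while its COL4A1 and COL4A2 lay between those of sets 2 and 3. Of other matrix glycoproteins and proteoglycans, 38 of 54 were in the table, 10 reached 10 CPM and 6 spanned 2-fold, with a median span of 1.08. Over all genes 5.85% spanned 2-fold and the median span was 0.33. SPP1 (osteopontin) had 44.4, 0.876, 3.85 and 3.93 CPM, TGFBI 83.5, 52.6, 31.2 and 42.7 CPM, and the CCN family members CTGF, CYR61 and NOV were likewise highest in set 1. BCAN, a proteoglycan of brain matrix, was lowest there, with 3.37, 8.08, 18.8 and 13.7 CPM. SPP1 reached 10 CPM in set 1 alone, and such a gene is more apt to span 2-fold.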

How the data were processed

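Each line was 1 library made with the Chromium 3' kit, version 2, per the labels' protocols. The tools named are Cell Ranger 3.0.0 and Seurat 3.0 and the builds hg19 and mm10, per the submitters' processing notes, which give no roles. The authors deposited UMI counts for 19238 genes and 8173 cells, and a natural log version of that table. For the 55 members the deposited natural log values equal, within 1e-10, the log of 1 plus 10000 times a count over the cell's total, so only the counts were used. All 8173 columns are cells whose suffix names no line, so none was mapped to a sample. Between 3001 and 6999 genes were detected per cell, and mitochondrial UMIs made up 19.9% or less. No doublet caller was run and free RNA was not removed.

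Counts were summed by suffix and given as CPM with exact Poisson intervals, ratios with exact conditional binomial intervals (Python 3.11.15, scipy 1.17.1). Shares of cells were taken after thinning, which left out 6, 1, 1 and 1 cells. No p-value was computed, since each set is 1 library. Phases were called with scanpy 1.11.5. Named were all members that reached 10 CPM, chain partners, and members below it spanning 4-fold with 20 UMIs; from the lists, the genes 2-fold apart, at most 6 a list. Other members below 10 CPM, SERPINH1, LOX and ITGB1 were added once their values were known. The members and lists were chosen with earlier results of these data known. On simulated sets of 19238 genes, all 50 genes with a 3-fold change, all 50 with a 4-fold and all 50 with a 6-fold change were counted, but 0 of 50 at 1.5-fold and 0 of 6798 left unchanged; no variation between libraries was simulated. Alternatives were TMM scaling (edgeR 4.0.16), totals without mitochondrial and ribosomal protein genes, another pseudocount, other minimum levels, thinning, subsets of cells, and each set left out.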

Additional observations from a re-analysis of the deposited data

How the results depend on the processing

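No paired analysis was possible because the lines have a single library apiece and the cells' columns carry no replicate number. Of 14 members 6 spanned 2-fold over the sets. With no minimum level 15 of 55 did, with a minimum of 50 CPM 2 of 4, and by the ratio of CPM from 1 CPM, an alternative chosen after seeing the data, 18 of 32. Leaving out 1 barcode set, also added then, gave 4 to 6.

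With a pseudocount of 10 CPM the members 2-fold apart were 2 between sets 1 and 2, 2 between sets 1 and 4, 2 between sets 2 and 3, and 1 between sets 2 and 4. With no minimum level they were 10 for sets 1 and 2, 12 for sets 1 and 3, 11 for sets 1 and 4, and 8 for sets 2 and 3. A minimum of 50 CPM left 2 between sets 1 and 2 and 1 each between sets 1 and 3, sets 1 and 4, sets 2 and 3, and sets 2 and 4. With totals that leave out mitochondrial and ribosomal protein genes, 7 of 19 were 2-fold apart between sets 1 and 3 and also between sets 1 and 4. Fewer members enter at 50 CPM (4) and more with no minimum (55). Those totals shifted the median gene by 0.48, 0.51, 0.53 and 0.51 in sets 1 to 4, so more members passed 10 CPM. Of 7421 genes 434 spanned 2-fold over the 4 sets, and 198 did with a pseudocount of 10 CPM. The counts were 1012 of 19238 with no minimum, 126 of 2801 at 50 CPM and 547 of 8514 with those totals. Shares of all genes by pair are not given for these alternatives. The pair counts of members above therefore cannot be set against all genes.

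For the 23 members with a tracked log2 ratio, 147 of 184 alternative values were labelled unchanged and 37 moved. The label allowed for counting error and was lenient for genes with few UMIs. With a pseudocount of 10 CPM, COL4A4 at 0.14 in place of 0.94 and COL12A1 at 0.17 in place of 1.18 were labelled unchanged. Every alternative value of FN1 was labelled moved, at 1.12 to 1.37 in place of 1.22. None of the 184 changed direction. The count of members 2-fold apart between sets 3 and 4 stayed at 0 under every alternative run for that pair, all with a pseudocount. The plain ratio of CPM was not counted by pair. By it, set 3 was 2.01-fold above set 4 in FBLN1 (1.82 to 2.23). Set 4 was 2.24-fold above set 3 in LUM (1.13 to 4.69) and 2.76-fold in COL4A4 (1.18 to 7.17), both from few UMIs. Single libraries limit all of this, since the spread between libraries of a line was not measured, and members below 1 CPM rest on few UMIs.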

Other observations

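Single cells far above their set were looked up after the values were seen, and no explanation was tested. In set 2, 1 cell with 52486 UMIs held 323 SPARC UMIs, where the set's median was 29, its 99th percentile 72 and the next cell had 104. The same cell held 128 FN1 UMIs (set median 6) and 14 of LAMB3, along with 463 of SERPINE2, 158 of CD74, 106 of IGFBP3 and 67 of HLA-DRA, both CD74 and HLA-DRA being genes of antigen presentation. Of the melanocytic markers it held 263 UMIs of S100B, where its depth and the set's level would give 75.8. It held 41 of PMEL (145 by that reckoning), 10 of MLANA (116), 3 of MITF (10.3) and 1 of DCT (7.90). Of the others it held 6 of TYR (6.62), 5 of SOX10 (3.06) and 0 of TYRP1 (0.0102). Of the immune markers it held 20 UMIs of CD68 (1.79), 1 of LYZ (0.0525) and 0 of PTPRC (0.00146). Of the epithelial markers it held 12 UMIs of KRT8 (1.26) and 21 of KRT18, also above that reckoning. It held 0 of EPCAM, KRT14 and CDH1, where the reckoning gave at most 0.0613. The cell held none of the fibroblast and endothelial markers in the table, where the reckoning gave at most 0.115. Counts of 0 at such low levels say little. Without it SPARC in set 2 was 753.6 CPM in place of 757.5, and the variance over the mean of FN1 was 2.03 in place of 2.18.

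In set 3, LAMA4 stood out in a pair of cells with 61 and 48 UMIs, where the set's median was 1 and its 99th percentile 7. The first, with 55185 UMIs, also held 878 UMIs of GDF15, 872 of C11orf96 and 222 of CCL3, genes of stress and inflammation among them. Of the 25 genes raised most in the second, which held 38913 UMIs, 24 had a chromosome in RefSeq, and 13 of these, LAMA4 included, lie on chromosome 6, which holds 5.30% of the 15405 table genes with a chromosome. UMIs from chromosome 6 were 1.43 times those expected from the set in this cell and 1.67 times in the first. Of the 24 such genes of the first cell, 4 lie on chromosome 6. Other chromosomes of that cell were also far from the set, with chromosome 11 at 1.82, chromosome 10 at 1.72 and chromosome 12 at 0.168 times. Without the pair LAMA4 in set 3 was 50.3 CPM in place of 51.8, and its variance over the mean was 1.03 in place of 1.25.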
